A study of Mus musculus with 9 samples.

Results

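The 10 genes described here mark the identity of airway basal cells: Krt5, Krt14, Krt15, Krt17, Trp63, Ngfr, Pdpn, Dlk2, Aqp3 and Snai2. They were taken by symbol, without regard to their values, from a table of 13336 genes, and all 10 were found. RNA was measured by stranded mRNA sequencing in 5 Lef1KI and 4 WT libraries of mouse tracheal gland cells. The Lef1KI cells came from ACTA2-CreERT2:Lef-1KI mice and were sorted as GFP-negative; the WT cells came from ACTA2-CreERT2:ROSA-TG mice and were sorted as GFP-positive. Both groups thus carried a tamoxifen-inducible Cre under the promoter of smooth muscle actin, and all mice had tamoxifen on each of 5 days before harvest. Each library was 1 pool of 3 to 5 mice, expanded in culture to passage 1 with the kinase inhibitor Y-27632 (10 µM) and with inhibitors of BMP and TGF-beta receptors (DMH-1 and A83-01, 1 µM each) and of GSK3 (CHIR 99021, 1 µM), the last of which activates Wnt signalling. The sources used here name neither the age of the animals nor a batch. The sort gate and the genotype changed together in every library and cannot be told apart.

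Basal cells lie on the basement membrane of the airway and are stem cells for its surface epithelium. Their keratins pair up in filaments, with Krt5 as the type II partner of the type I keratins Krt14, Krt15 and Krt17, and the transcription factor p63, made by Trp63, maintains the basal programme of stratified and pseudostratified epithelia. Ngfr, Pdpn and Aqp3 encode proteins of the cell surface, Dlk2 a relative of the Notch ligands, and Snai2 a repressor of the Snail family. Myoepithelial cells, which wrap the glands, share the keratins and p63 with basal cells and add contractile proteins.

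The basal keratins and Trp63 were strongly expressed in both groups, and 1 of the 10 genes passed the test of the groups. Ngfr, the p75 neurotrophin receptor, fell in Lef1KI by 1.07 on the log2 scale and was the lowest of the 10 in each group. It met the authors' filter (a mean of 3 SD or more in a group) through WT alone, where it is higher, which limits this call. The other 9 did not pass the test: Krt5, Krt14, Krt17 and Pdpn had positive differences, and Krt15, Trp63, Dlk2, Aqp3 and Snai2 negative ones. Levels are in TPM, the share of a gene among the transcripts of a library after correction for length, so they can be compared between genes. Each difference is taken as Lef1KI minus WT of log2(TPM + 1), and a gene is said to have risen or fallen at a limma p under 0.05, adjusted over all 13336 genes by the Benjamini-Hochberg method.

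The count of 1 in 10 stands beside 7.97% of all genes called in either direction and 1.24% called lower. The median difference of the 10 genes was −0.25 and that of all genes was 0.14, and 6 of the 10 differences were negative where 4055 of the 13336 were. At an unadjusted p under 0.05 there were 4 of the 10 genes (Ngfr, Aqp3, Snai2 and Dlk2), beside 23.8% of all genes. None of the 10 changed sign under any of 16 alternative settings, though some of these settings cannot alter the differences.

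**Figure D1:**
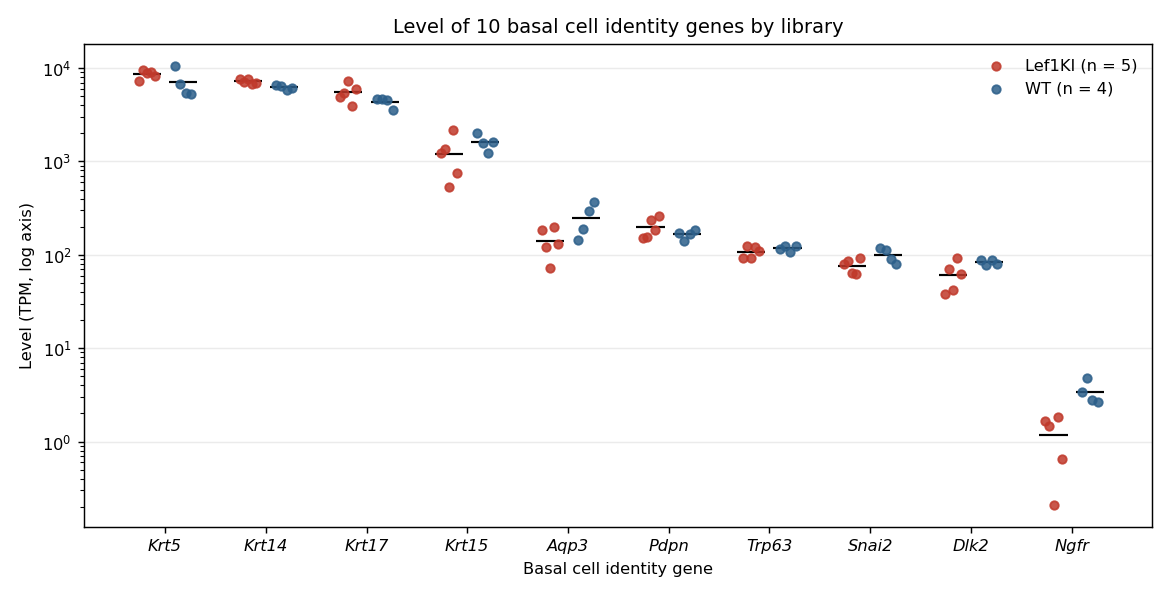
Level of each gene in TPM on a log axis, with a point for each library (5 Lef1KI in red, 4 WT in blue) and a bar at the group mean. Krt5, Krt14 and Krt17 lie at 3541 TPM or more in every library, and Ngfr lies between 0.21 and 4.84 TPM with the groups apart.

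Lef1 itself averaged 227 ± 79.8 TPM in Lef1KI and 0.448 ± 0.0763 TPM in WT (SD, with 5 and 4 libraries). Median log2(TPM + 1) per library was 3.58 to 3.97. Of all genes, 898 rose and 165 fell. With each library centred on its median, 605 rose and 332 fell, and the median of all genes moved to −0.018. Stromal transcripts were higher in Lef1KI. Of 12 fibroblast markers 11 rose, Col6a3 and Col1a1 with the smallest p, with summed levels of 1500 to 4231 TPM in Lef1KI and 372 to 1039 TPM in WT. On average most of these sums was Mgp, named after its value was seen, at 2262 ± 911 TPM in Lef1KI and 583 ± 261 TPM in WT. Of 9 measured endothelial markers 7 rose, Ramp2 and Plvap with the smallest p, with sums of 46.8 to 133.8 TPM in Lef1KI and 21.7 to 33.0 TPM in WT. Among 4 measured leukocyte markers Lyz2 rose, as did Coro1a except without WT B or E or under either scaling. Plvap, Lyz2 and Coro1a were under 3 SD in WT and passed the authors' filter through Lef1KI, where they are higher. This was not checked for the other stromal and leukocyte markers. It limits the counts of those that rose. Of the 4 leukocyte markers, 3 had positive differences and Cd68, named after its value was seen, a negative one. Cd68 averaged 93.7 ± 82.1 TPM in Lef1KI and 180 ± 60.9 TPM in WT (log2 difference −1.18, limma adjusted p 0.136). With 1 library left out, it fell only without Lef1KI A. Cd68 made up most of the summed levels, which overlapped at 58.3 to 244 TPM in Lef1KI and 111 to 259 TPM in WT. In cultures sorted in bulk, a lower share of cells of a type and less RNA per cell cannot be told apart. Of 8 contractile markers that separate myoepithelial from basal cells, Acta2 averaged 62.3 ± 31.2 TPM in Lef1KI and 129 ± 41.0 TPM in WT. The groups overlapped and Acta2 was not called (log2 difference −1.13, limma adjusted p 0.0834). With 1 library left out, Acta2 fell only without Lef1KI C. Tpm2 averaged 180 ± 62.3 TPM in Lef1KI and 165 ± 62.8 TPM in WT, and the other 6 had means of at most 10.4 TPM in either group, with the smooth muscle myosin gene Myh11 at 0.742 TPM in Lef1KI and 0.838 TPM in WT. Tpm2 and Myh11 were chosen after their values were seen.

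Krt5 (ENSMUSG00000061527, mm10 chromosome 15 from 101707070 to 101712898, minus strand) had the highest mean of the 10 genes. It stood at 7328, 9482, 8790, 9061 and 8270 TPM in Lef1KI A to E and at 10540, 6746, 5440 and 5308 TPM in the WT libraries A, B, E and D. The WT libraries spread more than the Lef1KI libraries: WT A was the highest of all 9, while the other 3 WT libraries were below all 5 of Lef1KI. The mean was 8586 ± 829 TPM in Lef1KI and 7008 ± 2442 TPM in WT (SD, n = 5 and 4), a log2 difference of 0.35 with a 95% interval of −0.11 to 0.80 (limma adjusted p 0.325). Without WT A the difference was 0.56 and its adjusted p 0.0505.

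Krt14 (ENSMUSG00000045545, chromosome 11 from 100203162 to 100207548, minus strand), the main type I partner of Krt5, was the steadiest of the 10. It had 7683, 7061, 7715, 6712 and 6913 TPM in Lef1KI A to E and 6652, 6423, 5815 and 6141 TPM in WT A, B, E and D. Every Lef1KI library was above every WT library, though Lef1KI D and WT A nearly touched. The log2 difference was 0.21 (95% interval −0.05 to 0.46, limma adjusted p 0.31), and an exact two-sided permutation test of this gene alone gave p 0.0159, the smallest that 5 against 4 libraries allow. Centring on the library median left a difference of 0.046 and trimmed-mean scaling 0.043. With Ngfr, Krt14 was 1 of 2 genes among the 10 whose groups did not overlap, beside 11.9% of all genes.

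Krt17 (ENSMUSG00000035557, chromosome 11 from 100256217 to 100261029, minus strand), a type I keratin that also marks activated epithelium after injury, had 4866, 5460, 7202, 3956 and 6006 TPM in Lef1KI A to E. The WT libraries A, B, E and D stood at 4610, 4674, 4605 and 3541 TPM. The groups overlapped: 3 of the WT libraries lay close together and WT D was the lowest of all 9, while Lef1KI D was below the other 3 WT libraries and the other 4 Lef1KI libraries were above all of WT. The log2 difference was 0.32 (95% interval −0.08 to 0.71, limma adjusted p 0.309).

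Krt15 (ENSMUSG00000054146, chromosome 11 from 100131758 to 100135928, minus strand), another type I keratin of basal layers, varied most among the 4 keratins within Lef1KI. It had 1238, 1347, 534, 2196 and 752 TPM in Lef1KI A to E and 2027, 1573, 1236 and 1633 TPM in WT A, B, E and D. The Lef1KI libraries lay on both sides of the WT libraries, with Lef1KI D above all of them and C and E well below. The highest Lef1KI library had 4.12 times the level of the lowest, against 1.64 times in WT, and the SD of log2 values in Lef1KI was larger than that of 97.5% of all genes. The log2 difference was −0.56 (95% interval −1.33 to 0.21, limma adjusted p 0.348).

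The 4 keratins together made up 2.11% to 2.42% of all transcripts in Lef1KI and 1.66% to 2.38% in WT. Of the summed TPM of 19 keratin genes in the table, they held 80.6% ± 2.92 in Lef1KI and 72.0% ± 10.5 in WT (SD, n = 5 and 4), with WT A the highest at 85.3% and WT D the lowest at 60.0%. The summed type I partners stood at 1.63 ± 0.195 times Krt5 in Lef1KI and 1.85 ± 0.414 times Krt5 in WT. Krt15 was 6.92% to 32.7% of Krt14 in Lef1KI and 21.2% to 30.5% of Krt14 in WT, and Krt17 was 58.9% to 93.4% of Krt14 in Lef1KI and 57.7% to 79.2% in WT. The 2 Lef1KI libraries with the least Krt15 per Krt14, C and E, had the most Krt17 per Krt14.

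Keratin genes resemble each other, and reads can be split between copies. Of all stretches of 50 bases in the GENCODE transcripts of Krt14, 13.9% were also found in other genes, mostly Krt16 (11.0%). The share was 8.52% for Krt5, mostly with Krt6a, 3.99% for Krt17, 0.64% for Krt15 and at most 0.963% for the other 6 genes. Among 12 further keratins measured, none passed limma's threshold (3 at an unadjusted p under 0.05), 11 had negative differences, and the median was −0.32. This count turned on WT A: without it Krt4, Krt13 and Krt80 fell (differences −2.59, −2.28 and −2.07), and with library weights 4 fell. Krt6a and Krt16, keratins of activated and hyperproliferative epithelium, averaged 3409 ± 573 and 767 ± 177 TPM in Lef1KI beside 4091 ± 1016 and 812 ± 260 TPM in WT. Krt6b, of the same class, averaged 235 ± 146 TPM in Lef1KI and 551 ± 339 TPM in WT (log2 difference −1.22, limma adjusted p 0.158). The luminal keratin Krt8 averaged 140 ± 68.6 TPM in Lef1KI and 136 ± 49.3 TPM in WT. Krt13, a keratin of suprabasal and hillock cells, averaged 343 ± 169 TPM in Lef1KI and 1301 ± 1048 TPM in WT (log2 difference −1.55, limma adjusted p 0.167).

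**Figure D2:**
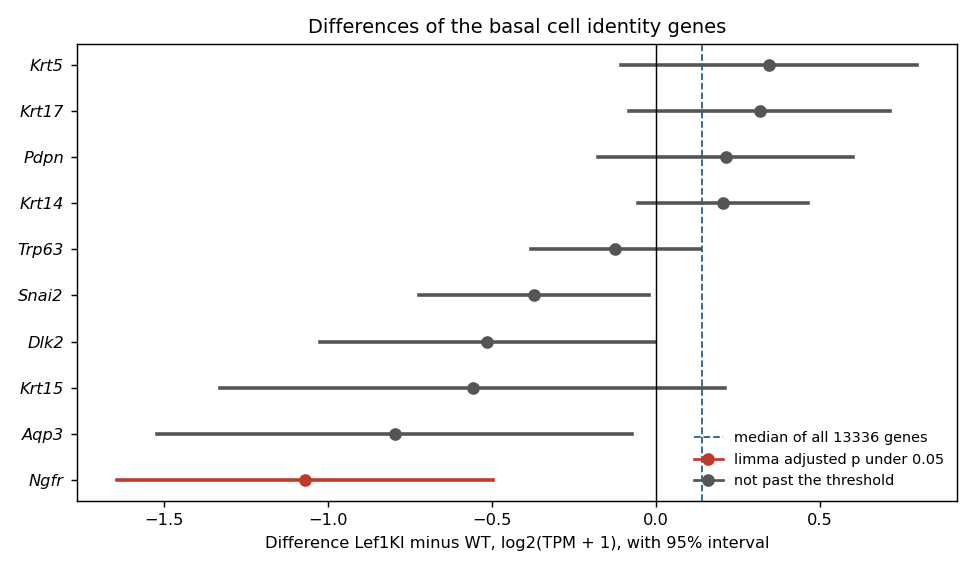
Log2 difference Lef1KI minus WT of each gene, with its 95% interval from limma, from the most positive at the top to the most negative at the bottom; the dashed line is the median of all 13336 genes (0.14). Only Ngfr, in red, passed the threshold after adjustment over all genes, at −1.07.

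Trp63 (ENSMUSG00000022510, chromosome 16 from 25683763 to 25892102, plus strand) encodes the master regulator p63. It had 92.6, 123, 93.3, 122 and 110 TPM in Lef1KI A to E and 114, 124, 108 and 123 TPM in WT A, B, E and D. The groups overlapped, and only Lef1KI A and C were below every WT library. The mean was 108 ± 14.9 TPM in Lef1KI and 117 ± 7.51 TPM in WT, with a log2 difference of −0.12 and a 95% interval of −0.38 to 0.13 (limma adjusted p 0.53). Gene-level values do not separate the long p63 forms from the ΔN forms that basal cells make.

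The p53 paralog genes were not at the same level. Trp53 averaged 146 ± 36.8 TPM in Lef1KI and 102 ± 10.1 TPM in WT (log2 difference 0.49, limma adjusted p 0.125). Trp73, whose product p73 is known in the airway for multiciliated cells, fell to 0.622 ± 0.422 TPM in Lef1KI, against 2.20 ± 0.92 TPM in WT (log2 difference −0.97, limma adjusted p 0.0313), a call lost without Lef1KI C or E or WT A, B or D (differences between −1.18 and −0.85 over the 9 fits that each left out a library). Trp73 was under 3 SD in Lef1KI and passed the authors' filter through WT, where it is higher, which limits its call. Of 14 measured genes with described p63 binding or dependence in epithelia, 1 rose, with a median difference of −0.019. It was Sfn, the epithelial 14-3-3 protein, at 759 ± 177 TPM in Lef1KI and 450 ± 63.2 TPM in WT (log2 difference 0.73, limma adjusted p 0.0251). That call was lost without WT A, B or E (differences between 0.62 and 0.81 over the 9 fits). Among those chosen after their values were seen, Perp, a desmosomal p63 target, averaged 1906 ± 661 TPM in Lef1KI and 2277 ± 156 TPM in WT, and the laminin receptor chain gene Itgb4 averaged 309 ± 70.0 TPM in Lef1KI and 270 ± 23.2 TPM in WT, without a call.

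Ngfr (ENSMUSG00000000120, chromosome 11 from 95568818 to 95587735, minus strand) encodes the p75 receptor by which basal cells are often sorted. It had 1.66, 1.47, 0.21, 1.83 and 0.65 TPM in Lef1KI A to E and 3.40, 4.84, 2.76 and 2.63 TPM in WT A, B, E and D. Every Lef1KI library was below every WT library, and Lef1KI C was far below the rest. The mean was 1.16 ± 0.70 TPM in Lef1KI and 3.41 ± 1.01 TPM in WT, with a log2 difference of −1.07 and a 95% interval of −1.65 to −0.50 (limma adjusted p 0.0305, exact two-sided permutation p 0.0159, the smallest possible, reached in 2 of 10 such tests).

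This call was close to the threshold. It was lost without Lef1KI E, WT A, WT B or WT E (differences −0.99, −1.06, −0.93 and −1.14, limma adjusted p 0.0589 to 0.0981) and with a pseudocount of 0.1, where the difference was −1.71 (adjusted p 0.0616). Over the 16 alternatives the adjusted p ran from 0.0165 to 0.0981. Without Lef1KI C the call held, at −0.88. The authors' filter asked for a mean of 3 SD or more in a group; Ngfr was at 1.98 SD in Lef1KI and 6.76 SD in WT, so that it is in the table through WT, where it is higher. Relative to Trp63, Ngfr was at 0.225% to 1.79% in Lef1KI and 2.14% to 3.92% in WT, and at these levels it ranked 9224 at best among 13336 genes.

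Of 14 measured genes of neurotrophin receptors, adaptors and ligands, 2 rose and none fell, and the median difference was 0.22. Ntrk2, the receptor kinase TrkB, rose to 12.1 ± 5.01 TPM in Lef1KI, against 2.84 ± 0.716 TPM in WT (log2 difference 1.69, limma adjusted p 0.00661), a call kept in all 9 fits that left out a library. Lingo1, a partner of Ngfr in receptor complexes of neurons, averaged 1.74 ± 0.703 TPM in Lef1KI and 0.735 ± 0.0957 TPM in WT (0.63, limma adjusted p 0.0435). The call of Lingo1 held only without Lef1KI A, B or C (differences between 0.49 and 0.72 over the 9 fits) and with neither scaling. The fibroblast markers were higher in the same libraries, and their part in these differences was not tested. Schwann cells also express Ngfr. Of 9 markers of that type, 4 were measured and none passed limma's threshold (1 at an unadjusted p under 0.05). Their sums, on average mostly Mbp, were 27.7 to 59.2 TPM in Lef1KI and 49.6 to 62.2 TPM in WT. The 1 gene was S100b, at 0.374 ± 0.0838 TPM in Lef1KI and 2.28 ± 1.84 TPM in WT (log2 difference −1.01, limma adjusted p 0.144). Of the 4, 3 had negative differences and 1 a positive one. Mbp and S100b were named after their values were seen.

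RefSeq start sites were available for 6 of the 10 genes, and the sequence upstream is shown for 3 of them that differ in result: Ngfr, which fell, and Krt5 and Pdpn, which did not pass. Capitals mark CTTTG or its reverse complement CAAAG, the core of the site that TCF/LEF factors bind, searched on both strands in the 250 bases before the start. Sequences are from RefSeq on GRCm38.p6, written 5′ to 3′ on the strand of the gene and ending at the start site, for Ngfr at the start that GENCODE gives.
Ngfr (chr11:95587736-95587948, minus strand): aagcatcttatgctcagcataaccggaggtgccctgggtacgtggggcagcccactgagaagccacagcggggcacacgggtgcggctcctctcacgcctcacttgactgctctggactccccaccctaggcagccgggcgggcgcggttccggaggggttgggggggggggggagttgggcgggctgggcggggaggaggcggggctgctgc
Krt5 (chr15:101712906-101713155, minus strand): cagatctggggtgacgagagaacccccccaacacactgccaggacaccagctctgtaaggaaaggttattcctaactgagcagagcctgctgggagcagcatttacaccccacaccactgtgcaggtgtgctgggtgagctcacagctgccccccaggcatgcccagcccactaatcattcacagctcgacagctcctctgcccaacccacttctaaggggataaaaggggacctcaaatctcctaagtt
Pdpn (chr4:143299565-143299814, minus strand): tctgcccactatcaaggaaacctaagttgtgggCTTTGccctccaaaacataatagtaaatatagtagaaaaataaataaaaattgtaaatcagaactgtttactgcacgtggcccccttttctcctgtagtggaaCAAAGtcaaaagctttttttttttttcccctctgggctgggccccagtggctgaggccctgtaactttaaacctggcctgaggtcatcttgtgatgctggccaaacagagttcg
The core was found 2 times upstream of Pdpn and in none of the windows of Ngfr, Krt5, Krt14, Dlk2 and Aqp3. It is present in 48.6% of 32851 promoter windows of this length. The RefSeq start used for Krt14 lay 1518 bases inside the GENCODE gene, so the bases before the GENCODE start were not searched. The starts used for Dlk2 lay 62 and 507 bases inside its GENCODE gene. The longer forms CTTTGAA and CTTTGAT, which overlap the core, were in none of the windows of the 6 genes and in 7.48% of all windows. The Ngfr window is rich in G and C (70.4%), and that of Pdpn is not (43.2%). A match is a description of the letters only.

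Pdpn (ENSMUSG00000028583, chromosome 4 from 143267431 to 143299564, minus strand) encodes podoplanin, a mucin-like membrane protein of basal cells that links to ezrin and moesin. It had 150, 154, 237, 185 and 263 TPM in Lef1KI A to E and 173, 142, 167 and 187 TPM in WT A, B, E and D. Lef1KI C and E were above all WT libraries and the other 3 lay among them. The log2 difference was 0.21 (95% interval −0.18 to 0.60, limma adjusted p 0.478). Of 6 measured partners of podoplanin none passed limma's threshold (1 at an unadjusted p under 0.05), and the hyaluronan receptor gene Cd44, chosen after its value was seen, averaged 236 ± 30.2 TPM in Lef1KI and 187 ± 30.7 TPM in WT. Fibroblasts and lymphatic vessels make podoplanin as well. Lyve1, the measured member of 3 lymphatic markers, rose to 8.82 ± 6.24 TPM in Lef1KI, against 0.86 ± 0.338 TPM in WT (limma adjusted p 0.00545). The part of these cells in the Pdpn values was not tested.

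Aqp3 (ENSMUSG00000028435, chromosome 4 from 41092722 to 41098183, minus strand) encodes a water and glycerol channel of the basal cell membrane. It had 184, 121, 72.7, 199 and 131 TPM in Lef1KI A to E and 143, 187, 297 and 365 TPM in WT A, B, E and D. The groups overlapped, since WT A was lower than Lef1KI A and D, and WT B was lower than Lef1KI D. The mean was 141 ± 51.1 TPM in Lef1KI and 248 ± 101 TPM in WT, with a log2 difference of −0.80 and an unadjusted 95% interval of −1.52 to −0.073 (limma adjusted p 0.174). Aqp1, the water channel of endothelium and of many stromal cells, rose to 88.2 ± 18.3 TPM in Lef1KI, against 19.4 ± 9.25 TPM in WT (log2 difference 2.22, limma adjusted p 0.00131). Aqp5, the channel of gland acini, averaged 40.2 ± 31.8 TPM in Lef1KI and 135 ± 137 TPM in WT, without a call. Endothelial and fibroblast markers were higher in the same libraries as Aqp1, and their part in its rise was not tested.

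Dlk2 (ENSMUSG00000047428, chromosome 17 from 46297421 to 46303271, plus strand) encodes a membrane protein with EGF repeats that resembles Notch ligands. It had 38.0, 69.7, 42.1, 93.4 and 62.5 TPM in Lef1KI A to E and 88.8, 78.5, 87.5 and 78.8 TPM in WT A, B, E and D. The WT libraries were close together, and 4 of the 5 Lef1KI libraries were below all of them while D was above. The log2 difference was −0.52 and an unadjusted 95% interval of −1.03 to −0.0036 (limma adjusted p 0.209). The SD of log2 values was 0.53 in Lef1KI and 0.094 in WT, larger than that of 89.8% of all genes in Lef1KI and of 13.3% in WT. The gene Abcc10 overlaps Dlk2 on the other strand, and the sources used here do not name the strand setting of the authors' counting. None of 8 measured Notch receptors, ligands and targets passed limma's threshold (2 at an unadjusted p under 0.05). Notch1 averaged 206 ± 96.0 TPM in Lef1KI and 195 ± 23.8 TPM in WT, and the target gene Hes1 averaged 169 ± 53.9 TPM in Lef1KI and 278 ± 63.3 TPM in WT (limma adjusted p 0.0921), both chosen after their values were seen.

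Snai2 (ENSMUSG00000022676, chromosome 16 from 14705852 to 14709385, plus strand) encodes Slug, a repressor found in basal cells and in cells in epithelial-mesenchymal transition. It had 80.2, 85.9, 63.8, 62.7 and 91.4 TPM in Lef1KI A to E and 119, 111, 89.1 and 80.0 TPM in WT A, B, E and D. The groups overlapped, although WT A and B were above every Lef1KI library. The mean was 76.8 ± 13.0 TPM in Lef1KI and 99.9 ± 18.4 TPM in WT, with a log2 difference of −0.37 and an unadjusted 95% interval of −0.72 to −0.023 (limma adjusted p 0.188).

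Of the other factors of that transition, all 5 measured genes rose, beside the negative difference of Snai2. The authors' filter could let a gene low in WT into the table through Lef1KI alone. Twist2 was under 3 SD in WT and so is in the table through Lef1KI, where it is higher. This was not checked for the others, and it limits the count. Twist2 averaged 6.43 ± 2.37 TPM in Lef1KI and 0.848 ± 0.455 TPM in WT (log2 difference 1.98, limma adjusted p 0.00122), and Twist1 averaged 7.36 ± 1.85 TPM in Lef1KI and 2.01 ± 0.86 TPM in WT (1.49, adjusted p 0.00281). The paralog Snai1 averaged 2.88 ± 1.50 TPM in Lef1KI and 0.763 ± 0.308 TPM in WT (1.08, adjusted p 0.0189), a call lost without WT A or WT D (differences between 0.88 and 1.17 over the 9 fits). Zeb1 and Zeb2 rose by 1.55 and 1.19 and were chosen with their values known. In every one of these 5 genes both group means were lower than those of Snai2, by level in TPM. Whether Snai2 differs from them in its response was not tested, and neither was the part of the fibroblast transcripts, higher in the same libraries (11 of 12 markers).

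**Figure D3:**
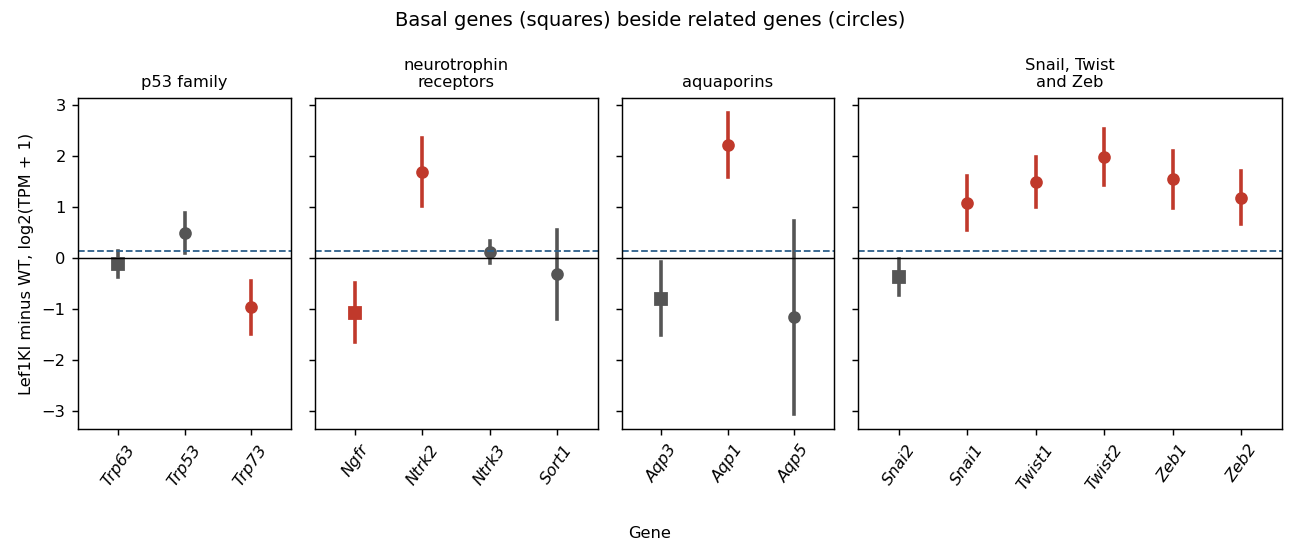
Log2 difference Lef1KI minus WT with its 95% interval for 4 of the basal genes (squares) and genes related to each (circles); red marks a limma adjusted p under 0.05 and grey the rest, and the dashed line is the median of all genes. Ngfr lies at −1.07 beside Ntrk2 at 1.69, and Snai2 at −0.37 beside the 5 genes of Snail, Twist and Zeb at 1.08 to 1.98.

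Other genes of the basal cell were mostly without a call. Of 19 measured genes of adhesion to the basement membrane, cell contact and basal identity, 2 rose, none fell, and the median difference was −0.11. Besides Sfn, given above, Cdh3, the P-cadherin of basal cells, averaged 129 ± 13.0 TPM in Lef1KI and 92.7 ± 13.7 TPM in WT (log2 difference 0.48, limma adjusted p 0.0419), a call that held only without Lef1KI A or D or WT A (differences between 0.38 and 0.54 over the 9 fits) and with neither scaling. Among the 19 genes, 1 rose and 2 fell with centring on the library median, and 1 rose and 3 fell with trimmed-mean scaling. Among hemidesmosome genes, picked after seeing their values, Col17a1 averaged 307 ± 50.7 TPM in Lef1KI and 348 ± 83.8 TPM in WT, and Dst averaged 118 ± 12.6 TPM in Lef1KI and 101 ± 10.1 TPM in WT. The summed level of the 19 genes was 4830 to 5639 TPM in Lef1KI and 5217 to 5656 TPM in WT. Of 8 measured luminal markers Elf3 fell (log2 difference −1.58, limma adjusted p 0.0254), a call lost without Lef1KI B, C or D or WT D or E (differences between −1.80 and −1.28 over the 9 fits). Cldn3 and Foxa1 (−1.55 and −0.77, adjusted p 0.0689 and 0.0791), chosen after their values were seen, fell as well under both scalings, with library weights and without WT A, so that the count was 3 there, and the count was 2 without Lef1KI E. Of 8 measured contractile markers Synm fell (−1.17, adjusted p 0.00477) and Mylk rose (0.70, adjusted p 0.0448). Among the 9 fits the call of Mylk held only without Lef1KI E or WT D (differences between 0.62 and 0.83). It was lost under both scalings and with the minimum of 1 TPM.

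The order of the Lef1KI libraries differed from gene to gene. Lef1KI C, with 309 TPM of Lef1, was the lowest of its group for Krt15, Ngfr and Aqp3 and the highest for Krt14 and Krt17, and 6 of the 10 genes lay below all WT libraries there. Lef1KI D, which had the least Lef1 of the group (139 TPM), was the highest of its group for Krt15, Ngfr, Dlk2 and Aqp3. It was the lowest for Krt14, Krt17 and Snai2, and 2 of its 10 genes lay below all WT libraries. Lef1KI A was the lowest for Krt5, Trp63, Pdpn and Dlk2. Lef1KI B had 312 TPM of Lef1, as much as C, and was the lowest for none of the 10. The relation to Lef1 was not tested over these 5 libraries. The summed fibroblast markers were 3752, 1973, 4231, 3355 and 1500 TPM in Lef1KI A to E and so were high in C, A and D alike. These sums are mostly Mgp and need not follow the other fibroblast markers.

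**Figure D4:**
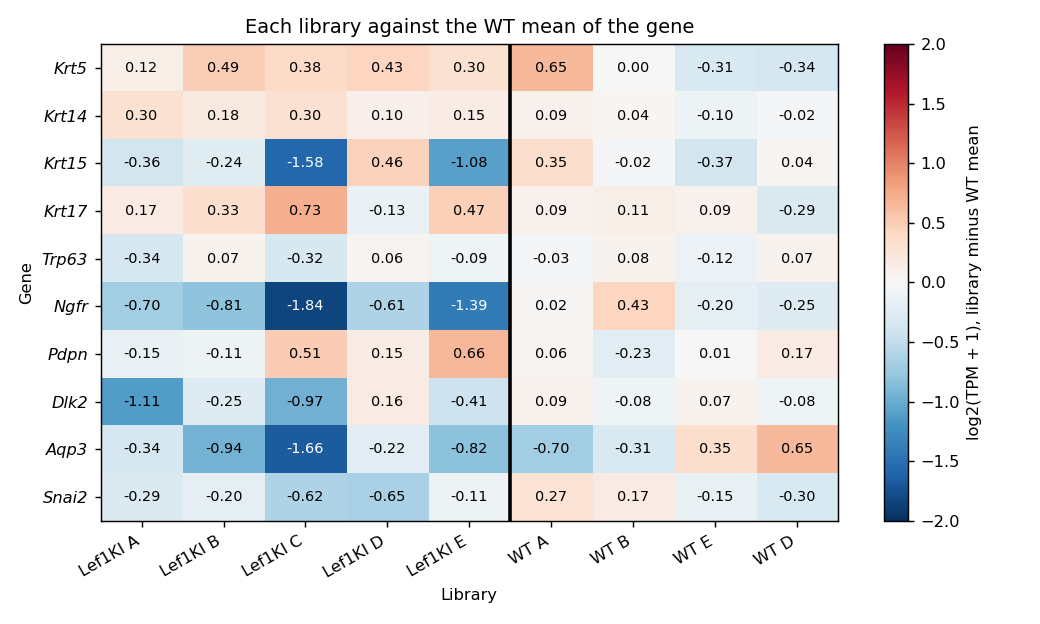
Log2(TPM + 1) of each gene in each library minus the WT mean of that gene, with Lef1KI libraries left of the line and WT libraries right of it. Lef1KI C stands at −1.58 for Krt15, −1.84 for Ngfr and −1.66 for Aqp3 while Krt17 stands at 0.73, and the Ngfr values of all 5 Lef1KI libraries are negative.

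The 3 genes with the widest range over the 9 libraries were Aqp3, Ngfr and Krt15 (ranges 2.31, 2.27 and 2.04 on the log2 scale). For each, the most similar genes were found by the root mean square difference between profiles centred on their own mean, over 9 libraries and among genes with a mean of at least 1 TPM. The closest to Aqp3 were Spint1, an epithelial protease inhibitor (0.17, with 33.1 TPM in Lef1KI and 60.5 TPM in WT), and Ppl, the desmosomal linker periplakin (0.19, with 75.4 TPM in Lef1KI and 117 TPM in WT). The closest to Ngfr were Art4, of the ADP-ribosyltransferase family (0.22, with 2.29 TPM in Lef1KI and 6.17 TPM in WT), and Acpp, an acid phosphatase (0.23, with 16.0 TPM in Lef1KI and 31.1 TPM in WT). The closest to Krt15 were the gene model Gm8430 (0.22) and Rin2, an activator of Rab5 (0.26, with 53.9 TPM in Lef1KI and 69.5 TPM in WT). The profiles share their libraries and include the group difference, and the likeness is a description of these 9 libraries.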

How the data were processed

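The authors deposited 1 table of log2(TPM + 1) values, with a column per library; RSEM and mm10 are named per the submitters' processing notes, while versions, aligner and annotation are not given in the sources used. A check of the unit found that each library sums to 99.6% to 99.84% of the total of TPM, and that 100% of values under 50 TPM are whole hundredths (tolerance 0.01 of a hundredth). As the values show, the authors' filter left genes with a mean of 3 SD or more in a group. Their columns of group mean and SD (log2) were not needed. TPM keeps no read counts, so depth is unknown and errors are the spread between libraries; p-values measure the spread between pools of mice. No pair of libraries had more than 92 of 13336 values exactly equal, as deposited. Columns carry letters that nothing ties to the replicate numbers of the labels and were assigned to groups by name.

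Groups were compared with limma 3.58.1 (R 4.3.3, intensity trend, group as the only term, Benjamini-Hochberg over all genes, no further filter), tested on simulated data first. Single genes were also tested by exact two-sided permutation over all splits into 5 and 4. Positions, overlaps and transcripts are from GENCODE M21, with 99.58% of gene IDs found. The 10 genes, the lists and the tests were chosen with earlier results of these data known, and several list genes are shared with earlier lists. A further gene, taken out of these lists, is not reported here. The text names the 10 genes, Lef1, Acta2, up to 2 genes per list and direction with the smallest adjusted p under 0.05, paralogs of the 10 genes with a mean of at least 1 TPM, and the nearest profiles. Others are marked. The further keratins are given in part: Krt7, Krt10, Krt18, Krt19 and Krt23 also reach that mean and are left out. Alternatives were 2 scalings, a pseudocount of 0.1, a minimum of 1 TPM, no trend, library weights and leaving out each library, and, chosen after seeing the data, a block on the column letters.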

Additional observations from a re-analysis of the deposited data

Results flagged for a closer look

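Of 20 groups (10 genes in 2 groups of libraries), 1 held a library far from the others. Krt17 in WT D, at 3541 TPM, was below the other 3 WT libraries, which lay between 4605 and 4674 TPM; the gap took up 0.947 of the range of log2 values, above Dixon's critical value for 4 samples. Chance flags about 1 group in 20.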

How the results depend on the processing

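None of the 10 genes changed sign in 16 alternatives, and the median difference of the 10 stayed between −0.41 and −0.17. Dropping the trend or asking for a minimum of 1 TPM cannot alter these differences. The block on the column letters gave the same differences as leaving out Lef1KI C. The count of the 10 genes called was 0 with a pseudocount of 0.1, 3 with library weights (Krt5 at 0.54, Ngfr at −0.99 and Aqp3 at −0.93), and 0 to 1 when a library was left out; the call of Ngfr held in 5 of these 9 fits. The count over all genes, 1063 as deposited, was 2334 with library weights, and 628 (without WT E) to 1686 (without Lef1KI A) when a library was left out. The share of calls that were higher was 84.5% as deposited; trimmed-mean scaling gave 65.2% and centring on medians 64.6%. The cause of these shifts was not tested. The deposited columns carry letters, A, B, D and E in both groups, that nothing ties to replicate numbers. The deviations of same-letter libraries from their group means correlated across genes at −0.259 to 0.258, so the letters were not taken to pair the libraries. With the letters as a replicate block, chosen after seeing the data, 484 genes and 0 of the 10 were called (Ngfr at −0.88, limma adjusted p 0.0601). Depth is unknown in TPM, so the precision of Ngfr at about 1 TPM cannot be given beyond the spread between libraries.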
